A study of Homo sapiens with 16 samples.

Results

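The endoplasmic reticulum (ER) chaperone and unfolded protein response genes are 32 genes that encode the folding enzymes of the ER, the machinery that removes misfolded proteins from it, and the sensors and transcription factors that set the level of both. They were taken by gene symbol from the count files, which list 55510 symbols. All 32 symbols were found, and all 32 were among the 22007 genes with enough counts to be tested. The cells were CAL51, an established triple-negative breast cancer line with a near-diploid karyotype, here at passage 10, and each group is a culture of this 1 line. They were treated with CC-671, an inhibitor of the spindle checkpoint kinase TTK and of the splicing factor kinase CLK2, at 3 or 10 µM, or with its vehicle DMSO. RNA was taken after 6 or 24 h from 2 libraries of each vehicle group and 3 libraries of each treated group, 16 in all.

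The ER lumen is where secreted and membrane proteins fold, with the help of chaperones, disulfide isomerases and lectins that hold glycoproteins. When unfolded proteins build up, the membrane sensors ERN1 (IRE1), EIF2AK3 (PERK) and ATF6 are released from the chaperone HSPA5 (BiP). ERN1 splices the messenger of the transcription factor XBP1, ATF6 is cut to give a transcription factor, and EIF2AK3 slows translation and raises the transcription factor ATF4. The programme that follows raises chaperones and the ER-associated degradation machinery. Counts per gene do not show XBP1 splicing, ATF6 cleavage or phosphorylation, and none of these was measured here.

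Gene counts summed to 104609173 to 123789361 read pairs a library. Levels are given in CPM, counts divided by the library total and scaled by a TMM factor of 0.963 to 1.05, so each is a share of the RNA counted, and a change in the RNA content of the cells cannot be told apart from one in a gene. Log2 fold changes are given ± SE from edgeR's quasi-likelihood test, with p-values adjusted by the Benjamini-Hochberg method over all 22007 genes, and a gene is said to have risen or fallen where adjusted p was under 0.05. The submitters call the libraries biological replicates, and the p-values rest on the spread among these libraries alone. The 2 doses at a time were compared with the same vehicle libraries. Of the markers that define the line's label, ESR1 reached at most 0.0477 CPM and PGR 0.0356 CPM, whereas ERBB2 was at 84.7 to 191.5 CPM. The keratin KRT8 was at 536 to 699.9 CPM and the adhesion protein EPCAM at 264 to 371 CPM. Markers of blood cells were low, with a summed level of 5.75 to 13.3 CPM for 7 genes and HBB at 0 in each library. Of these genes 3 had enough counts to be tested, and 2 of the 3 rose at least 2-fold at 6 h at each dose. The sum for 7 fibroblast markers, 5 of them tested, was 55.4 to 113 CPM. DCN and FAP were at most 0.0255 CPM, so other genes of the list made up nearly all of that sum. Both sums were lower in treated than in vehicle libraries at 24 h. Read pairs outside exons were 4.257 to 4.76% in vehicle and 5.637 to 7.004% in treated libraries. The part of these differences in the results was not tested.

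Several of these genes carry known response elements near their start sites, and the sequences are shown because the members that hold them did not move alike. The ER stress response element (ERSE) reads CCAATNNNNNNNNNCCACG and is bound by NF-Y at one end and by ATF6 or XBP1 at the other. Promoter windows from 250 bases before to 50 bases after the start site were taken from RefSeq (GRCh38.p14, whereas the counts were made on hg19) for the 28 members that matched, which left out PDIA3, DERL1, DERL3 and SEC24D. In the first listed window of each gene, the ERSE was found on either strand in 6 of 28 members, HSPA5, HSP90B1, CALR, CANX, XBP1 and CRELD2, and in 22 of 27305 windows in all (0.0806%). With every listed window of a member searched, 7 members held an ERSE. Capitals mark the ERSE in the windows of HSPA5 (chr9:125241294-125241593, minus strand), HSP90B1 (chr12:103930160-103930459, plus strand, 2 matches), CALR (chr19:12938359-12938658, plus strand) and CANX (chr5:179698679-179698978, plus strand), each printed 5′ to 3′ along its gene.
HSPA5: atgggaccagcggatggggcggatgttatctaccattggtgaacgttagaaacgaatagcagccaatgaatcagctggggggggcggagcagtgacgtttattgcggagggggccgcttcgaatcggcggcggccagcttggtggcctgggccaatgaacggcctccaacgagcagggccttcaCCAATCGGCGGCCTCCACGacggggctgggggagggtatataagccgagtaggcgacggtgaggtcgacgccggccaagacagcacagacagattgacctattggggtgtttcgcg
HSP90B1: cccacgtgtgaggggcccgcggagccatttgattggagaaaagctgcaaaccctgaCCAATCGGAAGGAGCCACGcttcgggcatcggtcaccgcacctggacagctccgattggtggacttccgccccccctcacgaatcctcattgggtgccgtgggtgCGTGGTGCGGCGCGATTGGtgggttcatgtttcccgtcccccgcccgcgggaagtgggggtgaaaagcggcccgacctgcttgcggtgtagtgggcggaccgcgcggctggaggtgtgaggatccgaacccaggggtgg
CALR: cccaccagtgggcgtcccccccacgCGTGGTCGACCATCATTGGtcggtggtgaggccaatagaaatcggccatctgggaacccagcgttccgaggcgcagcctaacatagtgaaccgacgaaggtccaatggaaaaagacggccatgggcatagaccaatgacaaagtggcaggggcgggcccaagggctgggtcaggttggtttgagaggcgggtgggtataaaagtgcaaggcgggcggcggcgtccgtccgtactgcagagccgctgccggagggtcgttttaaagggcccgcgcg
CANX: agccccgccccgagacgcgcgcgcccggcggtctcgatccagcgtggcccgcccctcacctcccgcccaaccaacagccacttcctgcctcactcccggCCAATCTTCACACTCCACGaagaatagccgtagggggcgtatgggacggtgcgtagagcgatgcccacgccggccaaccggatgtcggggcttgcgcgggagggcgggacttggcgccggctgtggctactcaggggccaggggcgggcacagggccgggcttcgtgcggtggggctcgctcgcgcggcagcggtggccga
The match began 66 bases before the start site in HSPA5, 194 and 89 in HSP90B1, 225 in CALR and 151 in CANX. After 6 h of 10 µM CC-671, HSPA5, HSP90B1 and CALR rose and CANX fell.

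The other members with an ERSE in their first listed window were XBP1, 52 bases before the start site (chr22:28800603-28800621), and CRELD2, 80 bases before it (chr22:49918554-49918572). In these windows 3 members held the shorter ERSE-II, ATTGG and CCACG with 1 base between them, searched on both strands. The matches of all these members are shown in capitals, 5′ to 3′ along each gene, so that those reading CGTGG first lie on the opposite strand.
XBP1, ERSE: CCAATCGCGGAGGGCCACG
CRELD2, ERSE: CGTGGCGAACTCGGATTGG
HERPUD1, ERSE-II: ATTGGGCCACG
SDF2L1, ERSE-II: CGTGGACCAAT
HYOU1, ERSE-II: CGTGGTCCAAT
The ERSE-II lay 117 bases before the start site of HERPUD1 (chr16:56932025-56932035), 188 before that of SDF2L1 (chr22:21642114-21642124), and 185 and 79 before that of HYOU1 (chr11:119057380-119057390 and chr11:119057274-119057284), and in 15 of 27305 windows in all (0.0549%). HYOU1 also held TGACGTGG, the UPRE bound by XBP1, which overlaps 1 of its ERSE-II matches and is in 0.795% of windows. HERPUD1 held the ATF4 element TGATGNAA, which is in 3.67%. At 10 µM and 6 h XBP1, HERPUD1 and SDF2L1 rose, while CRELD2 (0.05 ± 0.04) and HYOU1 (0.11 ± 0.05) did not pass the test. A match is a description of these letters, not a measured binding site.

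At 6 h most of the folding enzymes and part of the degradation genes were higher in treated cells, and a smaller set of members was lower. At 3 µM, 18 of 32 members rose (56.2%, against 31.6% of all genes tested) and 11 fell (34.4%, against 31.6%). At 10 µM, 20 rose (62.5%, against 34%) and 8 fell (25%, against 33.6%). The median log2 fold change of the members was 0.18 at 3 µM and 0.26 at 10 µM, beside 0.0167 and 0.0131 over all genes. The changes were small at the lower dose, where no member rose or fell 2-fold, and at 10 µM 5 members rose at least 2-fold: HSPA5, DNAJB9, HERPUD1, EIF2AK3 and DERL3. Without 10 µM replicate 1 only HERPUD1 and DERL3 of these did so, and 3 did without vehicle replicate 1, with no low-count filter, by limma-voom or in a fit of the compared groups alone. The share of all genes that changed 2-fold was not counted at either time, so counts of such members here and below cannot be set against it.

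**Figure D1:**
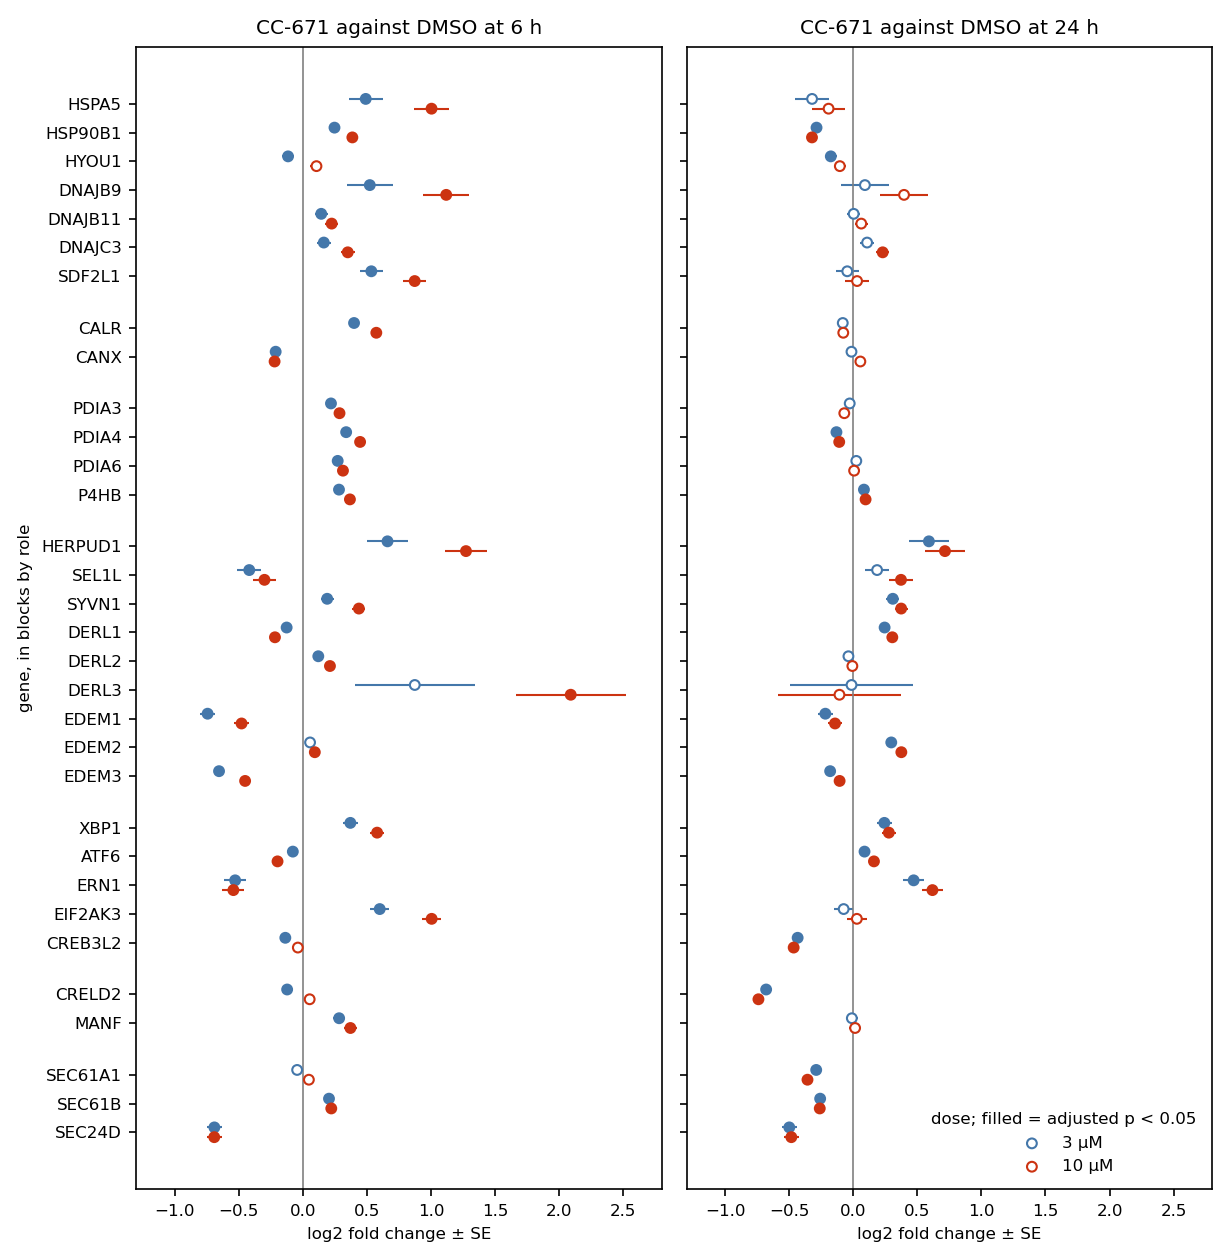
Log2 fold change ± SE of each of the 32 genes against DMSO after 6 h (left) and 24 h (right) of 3 µM (blue) or 10 µM (red) CC-671, from 3 treated and 2 vehicle libraries, in blocks by role, with filled points where adjusted p was under 0.05. HSPA5, DNAJB9, HERPUD1, EIF2AK3 and DERL3 lie at or beyond 1.00 at 10 µM and 6 h, and of these HERPUD1 alone is filled at 24 h.

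Of the 7 lumenal chaperones and co-chaperones, 6 rose and 1 fell at 3 µM (against 31.6 and 31.6% of all genes). At 10 µM 6 rose and none fell (against 34 and 33.6%). HSPA5, the Hsp70 of the ER and the repressor of its stress sensors, was at 1197 and 1218 CPM in the vehicle libraries at 6 h. It was at 1669, 1703 and 1718 CPM at 3 µM and at 3029, 2246 and 1994 CPM at 10 µM. No treated library overlapped vehicle, and the 10 µM libraries were further apart than the others. HSPA5 rose by 0.49 ± 0.13 at 3 µM (edgeR adjusted p = 0.0073) and by 1.00 ± 0.13 at 10 µM (edgeR adjusted p = 4.48e-05). The 3 µM call ended without vehicle replicate 1 (edgeR adjusted p = 0.0507, range over alternatives 6.7e-11 to 0.0507).

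DNAJB9, a J-protein that works with HSPA5 and restrains ERN1, was at 22.7 and 23.2 CPM in vehicle, 32.9, 32.7 and 33.2 CPM at 3 µM and 65.6, 46.4 and 37.3 CPM at 10 µM. Both doses were above vehicle in each library, and the highest 10 µM library stood well apart. The changes were 0.52 ± 0.18 (edgeR adjusted p = 0.0263) and 1.12 ± 0.18 (edgeR adjusted p = 0.000198). The first call ended when any 1 of its 5 libraries was left out, and the second when the fit held only the compared groups (edgeR adjusted p = 0.0528, range over alternatives 2e-10 to 0.0528).

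SDF2L1, part of a chaperone complex with DNAJB11 and HSPA5, was at 27.4 and 27.0 CPM in vehicle, 38.5, 41.8 and 37.8 CPM at 3 µM and 56.7, 49.5 and 42.9 CPM at 10 µM. It rose by 0.53 ± 0.09 and 0.87 ± 0.09, with every treated library above vehicle. HSP90B1, the Hsp90 of the ER, was at 1859.6 and 1875 CPM in vehicle, 2156, 2180.1 and 2312 CPM at 3 µM and 2579, 2429.8 and 2313 CPM at 10 µM. It too was above vehicle in each treated library, by 0.25 ± 0.04 and 0.39 ± 0.04. The co-chaperone DNAJB11 rose by 0.14 ± 0.05 and 0.22 ± 0.05, and DNAJC3, a further J-protein of the lumen that also inhibits EIF2AK3, by 0.16 ± 0.05 and 0.35 ± 0.05. Both calls at 3 µM ended when single libraries were left out, though the direction held. That of DNAJB11 ended without vehicle replicate 1 or 2 or 3 µM replicate 2 or 3, with values from 0.10 to 0.15, and that of DNAJC3 without vehicle replicate 1 or 3 µM replicate 2 or 3, with values from 0.13 to 0.14. Without 10 µM replicate 1, the rise of DNAJB11 at 10 µM was 0.15.

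HYOU1, the nucleotide exchange factor of HSPA5, did not follow the other chaperones. It was lower at 3 µM (−0.12 ± 0.05, edgeR adjusted p = 0.0372), a call that 9 of 13 alternatives ended, among them those without vehicle replicate 1 or 2 or 3 µM replicate 2 or 3. At 10 µM it was at 462, 404 and 391 CPM against 393 and 386 CPM in vehicle, so that the groups overlapped (0.11 ± 0.05, edgeR adjusted p = 0.0523). In 8 of 13 alternatives, among them that without 10 µM replicate 3 (0.14), it passed as higher, whereas without 10 µM replicate 1 the value was 0.021.

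The lectin chaperones, which hold monoglucosylated glycoproteins, went opposite ways at 6 h. CALR, the soluble calreticulin, was at 1579 and 1532 CPM in vehicle, 1957, 2113 and 2086 CPM at 3 µM and 2349, 2418 and 2178 CPM at 10 µM. It rose by 0.40 ± 0.04 (edgeR adjusted p = 3.13e-10) and by 0.57 ± 0.04 (edgeR adjusted p = 1.3e-13). CANX, the membrane-bound calnexin, was at 1092 and 1105 CPM in vehicle, 924, 921 and 999 CPM at 3 µM and 959, 946 and 924 CPM at 10 µM. Every treated library was below vehicle, and CANX changed by −0.21 ± 0.03 (edgeR adjusted p = 2.2e-06) and −0.22 ± 0.03 (edgeR adjusted p = 1.01e-06). The 4 disulfide isomerases, which form and rearrange disulfide bonds in the lumen, all rose at both doses (against 31.6 and 34% of all genes). PDIA4 rose by 0.34 ± 0.04 and 0.45 ± 0.04, P4HB by 0.28 ± 0.03 and 0.37 ± 0.03, PDIA6 by 0.27 ± 0.04 and 0.31 ± 0.04, and PDIA3, the partner of the lectins, by 0.22 ± 0.03 and 0.29 ± 0.03.

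ER-associated degradation carries misfolded proteins out of the ER for ubiquitination and destruction. Of its 9 members 3 were up and 4 down at 3 µM, where 31.6% of all genes rose and 31.6% fell. At 10 µM 5 were up and 4 down, against 34% and 33.6% of all genes. HERPUD1, a membrane protein of the degradation complex, was at 126 and 125 CPM in vehicle, 196, 199 and 199 CPM at 3 µM and 391, 283 and 234 CPM at 10 µM. It rose by 0.66 ± 0.16 (edgeR adjusted p = 0.00364) and by 1.27 ± 0.16 (edgeR adjusted p = 2.83e-05). SYVN1, the ubiquitin ligase HRD1 at the core of the complex, rose by 0.19 ± 0.05 and 0.44 ± 0.05, while SEL1L, its adaptor, changed by −0.42 ± 0.09 and −0.30 ± 0.09. SEL1L was at 92.6, 73.5 and 72.6 CPM at 10 µM against 93.9 and 102 CPM in vehicle, and its call at this dose ended without vehicle replicate 2 (edgeR adjusted p = 0.106, range over alternatives 7.69e-09 to 0.11) and in the fit of only the compared groups.

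The derlins, membrane proteins of the exit channel, also differed. DERL3 was low in vehicle, at 0.901 and 0.645 CPM, with 1.47, 1.38 and 1.41 CPM at 3 µM and 5.43, 2.32 and 2.10 CPM at 10 µM. Its change was 0.87 ± 0.47 at 3 µM, which did not pass (edgeR adjusted p = 0.13), and 2.09 ± 0.43 at 10 µM (edgeR adjusted p = 0.00115). When the fit held the compared groups alone, the 3 µM rise passed (edgeR adjusted p = 2.06e-05, range over alternatives 2.06e-05 to 0.402) and the 10 µM rise did not (0.0712, range 1.85e-08 to 0.0712). DERL2 rose by 0.12 ± 0.04 and 0.21 ± 0.04, the first call ending without vehicle replicate 1 (0.09), whereas DERL1 changed by −0.13 ± 0.03 and −0.22 ± 0.03, below vehicle in each library.

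The EDEM lectins, which mark glycoproteins for degradation by trimming mannose, were mostly lower at 6 h. EDEM1 was at 61.3 and 64.4 CPM in vehicle, 39.1, 37.1 and 36.3 CPM at 3 µM and 50.7, 42.7 and 41.7 CPM at 10 µM, and changed by −0.74 ± 0.06 (edgeR adjusted p = 1.28e-09) and −0.48 ± 0.06 (edgeR adjusted p = 4.87e-07). EDEM3 was at 62.6 and 67.0 CPM in vehicle, 40.1, 41.1 and 42.4 CPM at 3 µM and 49.7, 44.5 and 48.0 CPM at 10 µM, and changed by −0.65 ± 0.04 and −0.45 ± 0.04. Both genes lay below vehicle in every treated library, and the 10 µM values lay between those of 3 µM and vehicle. EDEM2 did not pass at 3 µM (0.06 ± 0.04) and rose by 0.09 ± 0.04 at 10 µM, a call that ended without vehicle replicate 1 or 2 or without 10 µM replicate 2, where the value was 0.05.

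Of the sensors of the response, 1 rose and 2 fell at each dose at 6 h, where 31.6 to 34% of all genes went each way. EIF2AK3 was at 27.3 and 28.3 CPM in vehicle, 41.3, 42.8 and 42.2 CPM at 3 µM and 62.8, 55.7 and 48.8 CPM at 10 µM, and rose by 0.60 ± 0.08 (edgeR adjusted p = 5.15e-06) and 1.01 ± 0.08 (edgeR adjusted p = 1.14e-08). ERN1 was at 5.91 and 5.95 CPM in vehicle, 4.56, 4.04 and 3.72 CPM at 3 µM and 4.44, 3.63 and 4.12 CPM at 10 µM, and changed by −0.53 ± 0.09 (edgeR adjusted p = 5.49e-06) and −0.54 ± 0.09 (edgeR adjusted p = 3.3e-06). No treated library of either gene overlapped vehicle, with EIF2AK3 above it and ERN1 below it. ATF6 changed by −0.08 ± 0.03 and −0.20 ± 0.03. The 3 µM call of ATF6 ended in 7 of 13 alternatives, among them those without vehicle replicate 2 or 3 µM replicate 2, and the value was −0.12 without 3 µM replicate 3.

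Of the transcription factors, XBP1 was at 105 and 104 CPM in vehicle, 131, 136 and 138 CPM at 3 µM and 172, 157 and 139.7 CPM at 10 µM. It rose by 0.37 ± 0.06 and 0.58 ± 0.06, above vehicle in each treated library. CREB3L2, a membrane-bound factor that drives secretory pathway genes, fell at 3 µM (−0.14 ± 0.04) and did not pass at 10 µM (−0.04 ± 0.04). Without 10 µM replicate 1 it passed as lower (−0.08, edgeR adjusted p = 0.0374, range over alternatives 0.0374 to 0.862). The secreted ER stress protein MANF rose by 0.28 ± 0.05 and 0.37 ± 0.05. CRELD2, which is also secreted and has isomerase activity, fell at 3 µM (−0.12 ± 0.04), not without vehicle replicate 1 (−0.09, edgeR adjusted p = 0.12, range over alternatives 0.00163 to 0.12), and did not pass at 10 µM (0.05 ± 0.04).

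Of the translocon and coat genes, SEC61B, the small beta subunit of the channel, rose by 0.20 ± 0.04 and 0.22 ± 0.04. SEC61A1, which forms the pore, did not pass at either dose (−0.04 ± 0.03 and 0.05 ± 0.03). SEC24D, a cargo adaptor of the COPII coat that carries proteins out of the ER, was at 83.2 and 84.2 CPM in vehicle, 51.0, 51.2 and 53.4 CPM at 3 µM and 58.7, 48.6 and 48.0 CPM at 10 µM. It changed by −0.69 ± 0.06 (edgeR adjusted p = 6.9e-09) and −0.69 ± 0.06 (edgeR adjusted p = 5.42e-09), below vehicle in each treated library.

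**Figure D2:**
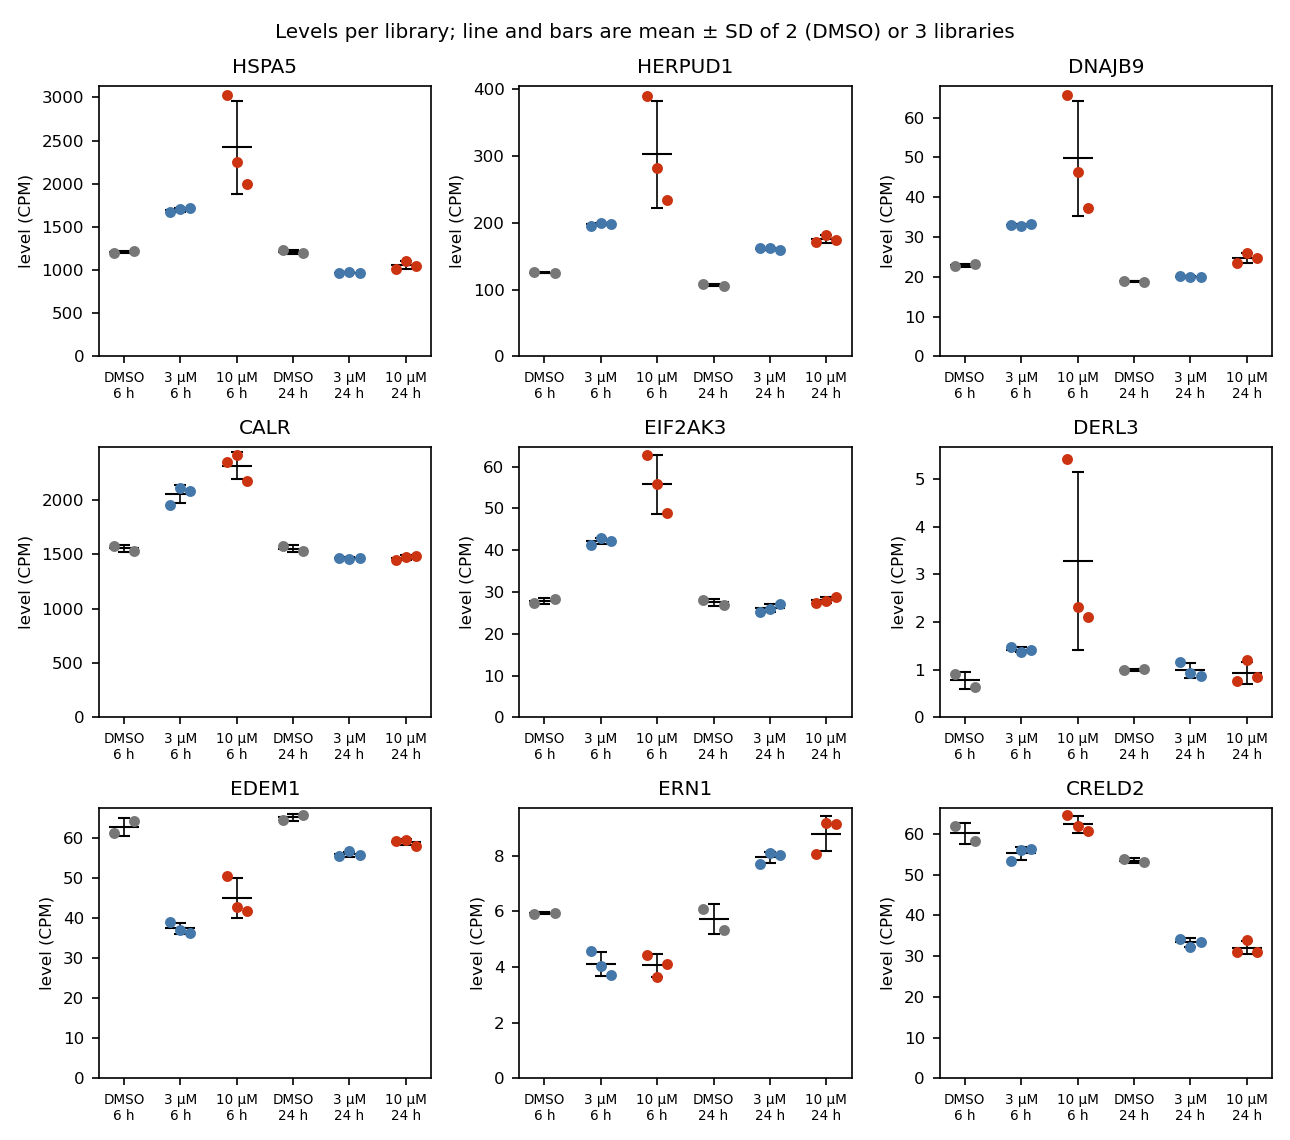
Level in CPM (linear axis from 0) of 9 genes in each of the 16 libraries, by dose and time, with the mean ± SD of the 2 vehicle (grey) or 3 treated libraries (blue 3 µM, red 10 µM). The 3 libraries at 10 µM and 6 h spread from 1994 to 3029 CPM for HSPA5 and from 2.10 to 5.43 CPM for DERL3, and all groups of HSPA5, EIF2AK3 and CALR at 24 h lie near or below vehicle.

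The libraries at 10 µM and 6 h varied more in these genes than those of any other group. The median SD of the log2 level over the 32 members was 0.0985 there, against 0.0172 to 0.0495 in the other 5 groups, while over all genes it was 0.0634 against 0.0319 to 0.0589. An SD over 0.3 was found for 4 members in this group and for none in the others, and the highest was that of DERL3, at 0.656. Replicate 1 was the highest of the 3 libraries for 22 of 32 members (and for 29.7% of all genes), and replicate 3 the lowest for 27. The share of all genes lowest in a library was not counted. Ranks were uneven in other groups too. At 10 µM and 24 h replicate 1 was the lowest for 24 members and the highest for 0 (31.8% of all genes). At 3 µM and 6 h replicate 1 was the lowest for 20 and replicate 3 the highest for 18 (35.9% of all genes).

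The log2 ratio of each library to mean vehicle shows the order by gene. For HSPA5 it was 1.33, 0.90 and 0.72 in replicates 1, 2 and 3. For HERPUD1 the ratios were 1.64, 1.18 and 0.90, and for DNAJB9 1.52, 1.01 and 0.70. The same order held for SDF2L1 (1.06, 0.87 and 0.66), EIF2AK3 (1.18, 1.00 and 0.81), DERL3 (2.81, 1.58 and 1.44) and XBP1 (0.72, 0.58 and 0.42). In the isomerases and CALR replicate 2 was highest, with 0.59, 0.64 and 0.49 for CALR and 0.34, 0.44 and 0.32 for P4HB. Members that were lower than vehicle were nearest to it in replicate 1 for SEL1L (−0.08, −0.41 and −0.43), EDEM1 (−0.31, −0.56 and −0.59), EDEM3 (−0.38, −0.54 and −0.43), ERN1 (−0.42, −0.71 and −0.53) and SEC24D (−0.51, −0.78 and −0.80). The median ratio over the 32 members was 0.29, 0.31 and 0.18, and 6, 4 and 1 members were above 1.

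**Figure D3:**
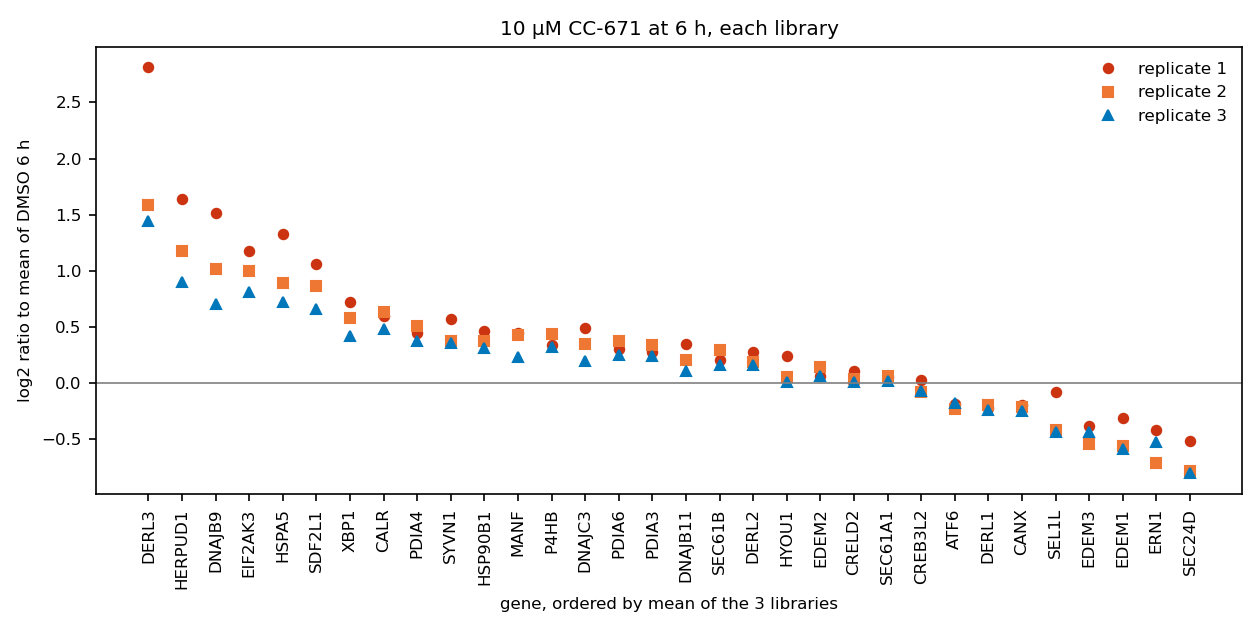
Log2 ratio of each of the 3 libraries at 10 µM and 6 h (replicate 1 circles, 2 squares, 3 triangles) to the mean of the 2 vehicle libraries at 6 h, for the 32 genes ordered by their mean ratio. Replicate 1 is highest for 22 of 32 genes and stands furthest above the others for DERL3, HERPUD1, DNAJB9 and HSPA5.

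Leaving out replicate 1 of this group lowered the largest values, and the members at least 2-fold higher numbered 2 in place of 5. Without it, 20 members were higher and 9 lower after 6 h of 10 µM (against 32.4 and 33.2% of all genes in that fit). The changes were then 0.80 for HSPA5, 1.04 for HERPUD1, 0.86 for DNAJB9, 0.90 for EIF2AK3 and 1.50 for DERL3, each still past the threshold. Without replicate 2 the counts were 19 and 8 (against 32.3 and 33.2%), and without replicate 3 they were 21 and 8 (against 32.5 and 33.5%).

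The doses were compared with each other at each time to find whether the higher dose changed these genes more. At 6 h, 20 of 32 members were higher at 10 µM than at 3 µM (62.5%, against 12% of all genes) and 2 were lower (6.25%, against 12.9%). HERPUD1 was higher by 0.61 ± 0.14, DNAJB9 by 0.60 ± 0.15, HSPA5 by 0.51 ± 0.12, EIF2AK3 by 0.41 ± 0.06 (edgeR adjusted p = 0.000391) and SDF2L1 by 0.34 ± 0.08. EDEM1 (0.27 ± 0.05) and EDEM3 (0.20 ± 0.04), which both fell against vehicle, were also higher at 10 µM than at 3 µM, as were HYOU1 (0.22 ± 0.04) and CRELD2 (0.18 ± 0.04). The members that were lower at 10 µM were ATF6 (−0.12 ± 0.03) and DERL1 (−0.09 ± 0.03). Of those without a call, SEC24D differed by −0.00083 ± 0.05, ERN1 by −0.01 ± 0.08, CANX by −0.01 ± 0.03 and PDIA6 by 0.04 ± 0.03.

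The sizes of these dose differences depended on replicate 1 of 10 µM at 6 h. Without it, the differences were 0.32 for HSPA5, 0.39 for HERPUD1, 0.35 for DNAJB9 and 0.64 for DERL3, which had been 1.22 ± 0.34. They were 0.13 for XBP1, 0.17 for EDEM1, 0.15 for HYOU1 and 0.11 for DNAJC3, all still past the threshold. The calls of CREB3L2 (0.06) and DERL2 (0.06) ended without it, that of DERL1 (−0.09) as well, and SEC24D passed as lower (−0.10). Other single libraries ended the calls of PDIA4 (3 µM replicate 1 or 10 µM replicate 2), P4HB (3 µM replicate 1 or 3, or 10 µM replicate 2, where the value was 0.05), DERL1 (3 µM replicate 2 or 3, or 10 µM replicate 3), DERL2 (3 µM replicate 1 or 2), CREB3L2 (3 µM replicate 2), DNAJB9 (3 µM replicate 3) and DERL3 (any 1 of the 3 µM libraries). With only these 6 libraries in the fit, 7 members were higher (against 7.68% of all genes in that fit) and 1 was lower (against 8.98%), and HSPA5 did not pass (edgeR adjusted p = 0.147, range over alternatives 3.65e-06 to 0.147).

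At 24 h no member differed between the doses by the edgeR test (0 of 32, against 2.49% of all genes higher and 3.85% lower), and the differences ranged from −0.09 to 0.31. The largest was that of DNAJB9, at 20.1, 20.0 and 20.0 CPM at 3 µM and 23.6, 26.1 and 24.6 CPM at 10 µM (0.31 ± 0.16, edgeR adjusted p = 0.355). With only the 24 h groups of treated libraries in the fit, 16 members were higher at 10 µM (against 9.15% of all genes in that fit) and 1 was lower (against 9.16%). At an unadjusted p under 0.05 the edgeR fit had 7 members higher and 1 lower, and the share of all genes at this threshold was not counted. DESeq2 called 0 higher (against 2.67% of all genes) and 1 lower (against 4.68%).

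After 24 h the members rose and fell at about the rate of all genes. At 3 µM, 8 of 32 rose (25%, against 29.7%) and 10 fell (31.2%, against 30.9%). At 10 µM, 10 rose (31.2%, against 31.3%) and 9 fell (28.1%, against 32.3%), and no member changed 2-fold at either dose. The median log2 fold change was −0.02 at 3 µM and 0.01 at 10 µM. Scaling mattered here: without scaling factors the median of all genes moved by 0.101 and 0.11. In that fit 13 members rose (against 38.3% of all genes) and 6 fell (against 22.6%) at 3 µM. At 10 µM 16 rose (against 39.9%) and 6 fell (against 24.2%).

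Of the 10 members that rose at 10 µM and 24 h, 5 were among the 9 degradation genes and 3 among the 5 sensors or transcription factors. Of the same 9 and 5 genes, 2 and 1 fell, where 31.3% of all genes rose and 32.3% fell. HERPUD1 was at 108 and 106 CPM in vehicle, 162, 163 and 159 CPM at 3 µM and 171, 182 and 175 CPM at 10 µM, and rose by 0.59 ± 0.16 (edgeR adjusted p = 0.00798) and 0.72 ± 0.16 (edgeR adjusted p = 0.00234). SYVN1 rose by 0.31 ± 0.05 and 0.37 ± 0.05, EDEM2 by 0.30 ± 0.04 and 0.37 ± 0.04, DERL1 by 0.24 ± 0.03 and 0.30 ± 0.03, and XBP1 by 0.24 ± 0.06 and 0.28 ± 0.06. In each of these 5 genes every treated library lay above vehicle. Called or not, 24 of 32 members at 3 µM and 26 at 10 µM had treated libraries that did not overlap vehicle. That share over all genes was not counted in any comparison. ERN1 was at 6.09 and 5.34 CPM in vehicle, 7.70, 8.08 and 8.02 CPM at 3 µM and 8.06, 9.17 and 9.13 CPM at 10 µM, and rose by 0.47 ± 0.08 (edgeR adjusted p = 2.01e-05) and 0.62 ± 0.08 (edgeR adjusted p = 2.73e-07). SEL1L rose at 10 µM (0.37 ± 0.09) and did not pass at 3 µM (0.19 ± 0.09), and the same was true of DNAJC3 (0.23 ± 0.05 and 0.11 ± 0.05).

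ATF6 rose by 0.09 ± 0.03 and 0.16 ± 0.03, and P4HB by 0.08 ± 0.03 and 0.10 ± 0.03. Of these small rises, 3 lost their call when 1 library was left out, though the values moved little. The 3 µM call of P4HB ended without any 1 of the 5 libraries compared (0.073 to 0.089). Its 10 µM call ended without vehicle replicate 1 or 2 or 10 µM replicate 2 or 3 (0.085 to 0.10). The 3 µM call of ATF6 ended without vehicle replicate 1 or 2 or 3 µM replicate 2 (0.079 to 0.088).

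The members that fell at 24 h came from several roles. CRELD2 was at 53.8 and 53.1 CPM in vehicle, 34.3, 32.2 and 33.6 CPM at 3 µM and 31.1, 33.8 and 31.0 CPM at 10 µM, the deepest fall of the 32, at −0.68 ± 0.04 (edgeR adjusted p = 8.18e-14) and −0.74 ± 0.04 (edgeR adjusted p = 9.14e-15). CREB3L2 was at 169.7 and 168 CPM in vehicle, 126, 126 and 122 CPM at 3 µM and 122, 122 and 123 CPM at 10 µM (−0.43 ± 0.04 and −0.47 ± 0.04). All 3 translocon and coat genes fell at both doses (against 30.9 and 32.3% of all genes). SEC61A1 changed by −0.29 ± 0.03 and −0.36 ± 0.03, SEC61B by −0.26 ± 0.04 and −0.26 ± 0.04, and SEC24D by −0.50 ± 0.06 and −0.48 ± 0.06. HSP90B1 was at 2015 and 1973 CPM in vehicle, 1617, 1661 and 1624 CPM at 3 µM and 1583, 1588 and 1612 CPM at 10 µM (−0.29 ± 0.04 and −0.32 ± 0.04). In each of these 6 genes no treated library reached vehicle, which was not counted over all genes.

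EDEM1 (−0.22 ± 0.06 and −0.14 ± 0.06), EDEM3 (−0.18 ± 0.04 and −0.11 ± 0.04) and PDIA4 (−0.13 ± 0.04 and −0.11 ± 0.04) also fell at both doses, and HYOU1 at 3 µM (−0.18 ± 0.05). The falls of these 4 genes at 3 µM did not pass without scaling factors, at −0.12 for EDEM1, −0.080 for EDEM3, −0.031 for PDIA4 and −0.075 for HYOU1. At 10 µM the call of EDEM1 ended without any 1 of the 5 libraries compared, that of EDEM3 without vehicle replicate 1 or 10 µM replicate 1, and that of PDIA4 without vehicle replicate 1. Without scaling factors EDEM1, PDIA4 and EDEM3 at 10 µM were at −0.032, 0.00034 and 0.0035, and no call remained. These 3 calls also ended with the stricter low-count filter.

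HSPA5 itself did not pass at 24 h, although every treated library was below vehicle. It was at 1227 and 1193 CPM in vehicle, 966, 976 and 961 CPM at 3 µM and 1016, 1108 and 1050.1 CPM at 10 µM. The changes were −0.32 ± 0.13 (edgeR adjusted p = 0.0524) and −0.19 ± 0.13 (edgeR adjusted p = 0.221). The spread used in this test is shared over all 6 groups and so includes that of the 10 µM libraries at 6 h. When the fit held the compared groups alone, the 3 µM change was −0.30 (edgeR adjusted p = 7.7e-12, range over alternatives 7.7e-12 to 0.175) and the 10 µM change −0.18 (0.000979, range 0.000979 to 0.606). At 3 µM HSPA5 also passed with RLE scaling, DESeq2 and limma-voom, and at 10 µM with none of them. DNAJB9 was above vehicle in each 10 µM library at 24 h and did not pass either (0.40 ± 0.19, edgeR adjusted p = 0.0869, range over alternatives 8.6e-12 to 0.221). The other members without a call at 10 µM and 24 h were between −0.11 and 0.06, among them CALR (−0.08 ± 0.04), EIF2AK3 (0.03 ± 0.08), SDF2L1 (0.03 ± 0.09) and MANF (0.01 ± 0.05).

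The change from 6 to 24 h was tested directly, as the effect of a dose at 24 h minus its effect at 6 h. At 3 µM, 15 of 32 members had a lower effect at 24 h (46.9%, against 23.7% of all genes) and 8 a higher one (25%, against 25.6%). At 10 µM, 19 were lower (59.4%, against 26.4%) and 9 were higher (28.1%, against 27.6%). HSPA5 had differences of −0.81 ± 0.18 at 3 µM (edgeR adjusted p = 0.00362) and −1.20 ± 0.19 at 10 µM (edgeR adjusted p = 0.000209), EIF2AK3 of −0.68 ± 0.11 and −0.98 ± 0.11, and SDF2L1 of −0.58 ± 0.13 and −0.84 ± 0.13. All 4 isomerases and both secreted proteins had lower effects at 24 h at both doses.

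At 10 µM the members took different courses from 6 to 24 h. Of the members that rose at 6 h, 11 had no call at 24 h (a course that 9.81% of all genes took). In 10 of these 11 the effects differed between times, DNAJB11 being the exception. Members of this and other courses with unlike calls were picked by the values that the test compares, which favours a difference. The share of all genes on this course whose effects differed was not counted, so 10 of 11 cannot be set against it. A further 3, HSP90B1, PDIA4 and SEC61B, rose at 6 h and fell at 24 h (5.43% of all genes), and their effects differed by −0.71 ± 0.05, −0.56 ± 0.05 and −0.48 ± 0.05. ERN1, DERL1, SEL1L and ATF6 fell at 6 h and rose at 24 h (5.06% of all genes), with differences of 1.16 ± 0.12, 0.52 ± 0.05, 0.67 ± 0.13 and 0.36 ± 0.05. HERPUD1, SYVN1, XBP1, DNAJC3, EDEM2 and P4HB rose at both times (18.8% of all genes). Of these, HERPUD1 (−0.56 ± 0.22, edgeR adjusted p = 0.0542), SYVN1 (−0.06 ± 0.07) and DNAJC3 (−0.12 ± 0.07) did not pass the test of a difference between times. EDEM1, EDEM3 and SEC24D fell at both times (19.4% of all genes), CREB3L2, CRELD2 and SEC61A1 fell at 24 h alone (7.51%), CANX at 6 h alone (9.12%), and HYOU1 had no call at either time (17.4%).

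Single libraries at 10 µM and 6 h decided some of these tests. HERPUD1 passed without replicate 1 (−0.32) or replicate 3 (−0.70), DNAJB11 without replicate 3 (−0.21) and DNAJC3 without replicate 3 (−0.18). Without replicate 1 the differences of DNAJB11 and DNAJC3 were −0.086 and −0.037 and did not pass. The difference of DNAJB9 (−0.72 ± 0.26) was −0.46 without replicate 1, and its call ended without any 1 of the 4 vehicle libraries or 10 µM replicate 1 or 3 of 24 h. That of DERL3 (−2.20 ± 0.66) ended without vehicle replicate 2 of 6 h, and that of SEC24D (0.21 ± 0.08) without any 1 of the vehicle libraries, of 10 µM replicates 2 and 3 at 6 h, or of 10 µM replicate 3 at 24 h, while it was 0.32 without 10 µM replicate 1 at 6 h. HYOU1 (−0.21 ± 0.07) was −0.13 without that library. In a fit of the compared groups alone the calls of HYOU1, DNAJB9, DERL3 and SEC24D at 10 µM ended, and those of HYOU1 (−0.12) and DNAJB9 (−0.63) also ended without scaling factors, that of DNAJB9 with no low-count filter and that of SEC24D with RLE factors. At 3 µM the call of DERL2 (−0.16 ± 0.05) ended without vehicle replicate 1 of 6 h and without scaling factors (−0.081).

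**Figure D4:**
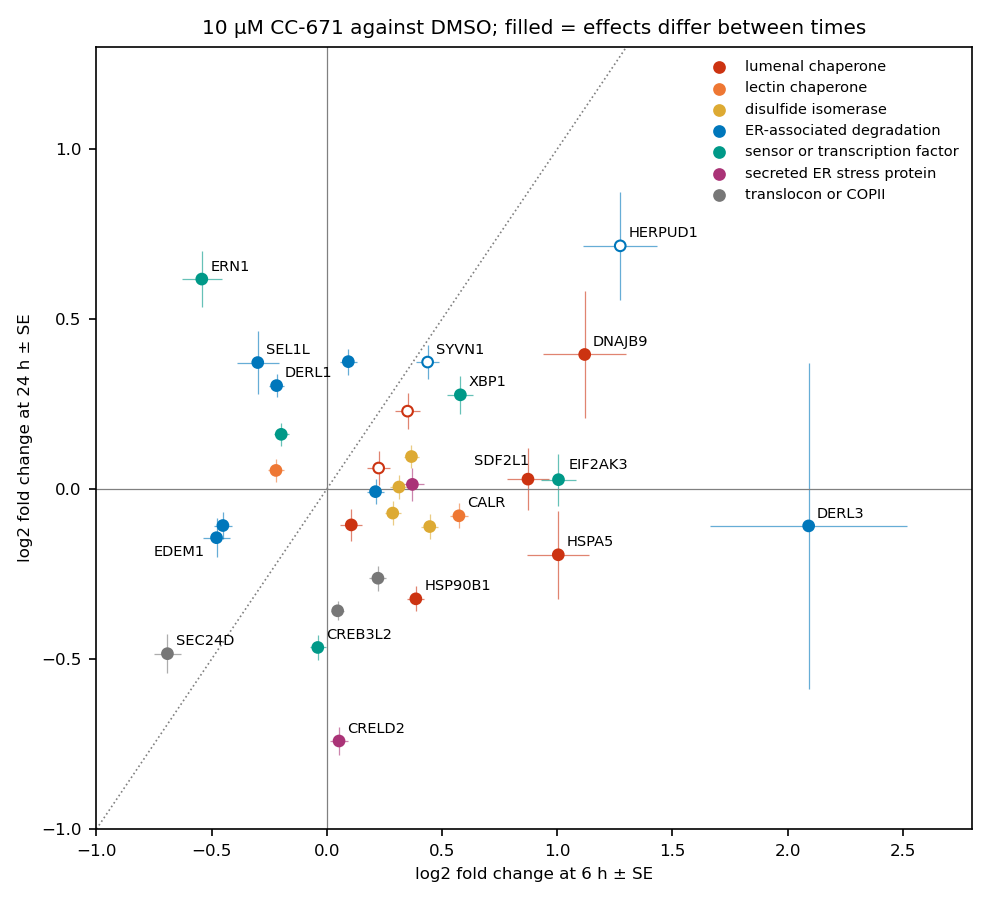
Log2 fold change ± SE against DMSO of each of the 32 genes at 24 h (vertical) and 6 h (horizontal) of 10 µM CC-671, coloured by role, with filled points where the effects differed between times at adjusted p under 0.05 and a dotted line where they would be equal. HSPA5, EIF2AK3, SDF2L1 and DERL3 lie to the right near 0 on the vertical axis, ERN1 lies to the upper left, and HERPUD1 lies to the upper right.

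In vehicle cells the changes of these genes between the times ranged from −0.29 to 0.37. From 6 to 24 h no member rose by the edgeR test (against 11% of all genes) and 4 fell (12.5%, against 9.55%), with changes of −0.17 ± 0.04 for SEC61B, −0.17 ± 0.05 for CRELD2, −0.13 ± 0.04 for EDEM2 and −0.12 ± 0.04 for DERL2. With 2 libraries a group, these calls ended without vehicle replicate 2 of 24 h, and some of them also without replicate 1 of 6 h or of 24 h. Without replicate 2 of 24 h the changes were −0.14 for SEC61B, −0.16 for CRELD2, −0.12 for EDEM2 and −0.12 for DERL2. At an unadjusted p under 0.05 1 member was higher and 4 were lower, and the share of all genes at this threshold was not counted. DESeq2 called 0 higher (against 10.6% of all genes) and 4 lower (against 9.68%). With only the vehicle groups in the edgeR fit, 2 members were higher (against 12.8% of all genes in that fit) and 7 were lower (against 13.6%). Among these were SEL1L (0.17) and HSP90B1 (0.09), which were higher, and DNAJB9 (−0.29) and HERPUD1 (−0.23), which were lower. HSPA5 was at 1197 and 1218 CPM at 6 h and 1227 and 1193 CPM at 24 h (0.0026 ± 0.14).

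The members that fell at 6 h had longer median spans than those that rose. In GENCODE 29, the genes that rose at 3 µM had a median span of 14.2 kb and 9.5 exons, and those that fell 62.3 kb and 16 exons. Over all genes with a span the medians were 17.8 kb and 6 exons for 6960 genes that rose (5301 with a span) and 43.7 kb and 12 exons for 6949 that fell (5917 with a span). At 10 µM the values were 14.2 kb and 9.5 exons against 63.5 kb and 18.5 exons for the members, and 18.6 kb and 6 exons against 41.7 kb and 11 exons over all genes. At 24 h the members that rose and fell had spans of 23.4 and 24.6 kb at 3 µM and 30.6 and 25.6 kb at 10 µM, and over all genes the spans were 21 and 36.7 kb at 3 µM and 21.3 and 36 kb at 10 µM. These values are a description, and the part of gene length was not tested.

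Related genes outside the 32 were counted from 3 lists. Of 31 further folding and quality control genes tested, 10 were up and 13 down at 3 µM and 6 h, 12 and 12 at 10 µM and 6 h, and 11 and 17 at each dose after 24 h, with medians of −0.01, 0.04, −0.15 and −0.15. As shares of the list, 32.3, 38.7, 35.5 and 35.5% were up and 41.9, 38.7, 54.8 and 54.8% down, against 31.6, 34, 29.7 and 31.3% up and 31.6, 33.6, 30.9 and 32.3% down over all genes tested. At 6 h the largest rises were those of SELK, an ER selenoprotein (0.52 ± 0.07 and 0.74 ± 0.07), and HSPA13, an Hsp70-like protein (0.41 ± 0.04 and 0.59 ± 0.04). The deepest falls were those of the oxidase gene ERO1LB (−0.79 ± 0.14) and UBE2G2 (−0.74 ± 0.04) at 3 µM, and of UBE2J1 (−0.73 ± 0.03) and UBE2G2 (−0.57 ± 0.04), ubiquitin-conjugating enzymes of ER-associated degradation, at 10 µM. After 24 h HSPA13 rose again (0.38 ± 0.04 and 0.49 ± 0.04), and PDIA5 (−0.75 ± 0.04 and −0.80 ± 0.04) and the glucosidase MOGS (−0.59 ± 0.04 and −0.64 ± 0.04) fell most. ERO1L, the oxidase that recharges disulfide isomerases, rose by 0.08 ± 0.03 and 0.20 ± 0.03 at 6 h and changed by −0.30 ± 0.03 and −0.29 ± 0.03 at 24 h. The ERO1L call at 3 µM and 6 h ended without vehicle replicate 1 or 2, or 3 µM replicate 1 or 3, with values of 0.060 to 0.091.

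Of 38 genes of translocation, glycosylation and ER traffic, 17 were up and 13 down after 6 h of 3 µM and 18 and 15 at 10 µM. At 24 h, 10 rose and 14 fell at 3 µM, and 11 and 15 at 10 µM. In the same order 44.7, 47.4, 26.3 and 28.9% of the list were up, against 31.6, 34, 29.7 and 31.3% of all genes, and 34.2, 39.5, 36.8 and 39.5% were down, against 31.6, 33.6, 30.9 and 32.3%. SEC31A, of the outer COPII coat, fell most at 6 h, from 233 and 235 CPM in vehicle to 108, 102 and 109 CPM at 3 µM and 113, 102 and 104 CPM at 10 µM (−1.14 ± 0.04 and −1.14 ± 0.04). The COPII GTPase SAR1B (−0.54 ± 0.03 at 3 µM) and the signal peptidase subunit SPCS3 (−0.69 ± 0.04 at 10 µM) were next. The largest rises at 6 h were those of SEC62 (0.40 ± 0.03) and RPN1 (0.37 ± 0.03) at 3 µM, and of RPN1 (0.43 ± 0.03), an oligosaccharyltransferase subunit, and the retrieval receptor KDELR2 (0.42 ± 0.03) at 10 µM. At 24 h SEC11C (0.51 ± 0.05 and 0.65 ± 0.05) and SEC24B (0.27 ± 0.03 and 0.30 ± 0.03) rose most, and SEC23A (−0.51 ± 0.03 and −0.55 ± 0.03) and SEC31A (−0.42 ± 0.04 and −0.48 ± 0.04) fell most.

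Of 21 regulators of the response and genes of the EIF2AK3 and ATF4 branch tested, 10 were up and 5 down at 3 µM and 6 h, 14 and 6 at 10 µM and 6 h, 14 and 5 at 3 µM and 24 h, and 14 and 4 at 10 µM and 24 h, with medians of 0.29, 0.33, 0.48 and 0.49. These were 47.6, 66.7, 66.7 and 66.7% up, against 31.6, 34, 29.7 and 31.3% of all genes, and 23.8, 28.6, 23.8 and 19% down, against 31.6, 33.6, 30.9 and 32.3%. ATF4 was at 326 and 318 CPM in vehicle at 6 h, 485, 523 and 515 CPM at 3 µM and 596, 602 and 554 CPM at 10 µM, and rose by 0.66 ± 0.04 and 0.86 ± 0.04 at 6 h and by 0.85 ± 0.04 and 0.92 ± 0.04 at 24 h. DDIT3, the stress factor CHOP, was at 9.84 and 9.35 CPM in vehicle at 6 h, 12.1, 12.6 and 12.0 CPM at 3 µM and 29.9, 20.0 and 14.9 CPM at 10 µM, where replicate 1 was again the highest. At 24 h DDIT3 was at 7.02 and 7.50 CPM in vehicle, 34.0, 32.9 and 32.6 CPM at 3 µM and 39.8, 40.6 and 40.1 CPM at 10 µM. It did not pass at 3 µM and 6 h (0.35 ± 0.23) and rose by 1.18 ± 0.22, 2.19 ± 0.23 and 2.47 ± 0.23 in the other comparisons. In a fit of the compared groups alone, DDIT3 passed at 3 µM and 6 h (edgeR adjusted p = 1.55e-05) and not at 10 µM and 6 h (edgeR adjusted p = 0.0781, range over alternatives 4.66e-08 to 0.0781). HSPA5, DNAJB9 and EIF2AK3 had no call at 24 h.

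The largest rises of this list at 6 h were those of CHAC1, a glutathione-degrading enzyme (1.28 ± 0.10 and 1.66 ± 0.10), the sestrin SESN2 at 3 µM (0.99 ± 0.05) and the transcription factor ATF3 at 10 µM (2.28 ± 0.58), which was at 32.7, 8.92 and 7.89 CPM in the 3 libraries. Without replicate 1 of 10 µM at 6 h the ATF3 change was 1.29, and in a fit of the compared groups alone it did not pass (edgeR adjusted p = 0.14, range over alternatives 2.95e-13 to 0.14). At 24 h they were those of the pseudokinase TRIB3 (2.62 ± 0.26 and 2.96 ± 0.26), CHAC1 (2.57 ± 0.11) and ATF3 (2.85 ± 0.68). MBTPS2, the membrane protease that makes the second cut in ATF6, was at 68.2 and 72.1 CPM in vehicle at 6 h, 36.7, 34.0 and 37.8 CPM at 3 µM and 29.4, 29.3 and 31.1 CPM at 10 µM. It changed by −0.95 ± 0.04 and −1.23 ± 0.04 at 6 h and by −0.25 ± 0.04 at 3 µM and 24 h. VLDLR (−0.42 ± 0.03 and −0.49 ± 0.03 at 6 h), PPP1R15B (−0.34 ± 0.04 and −0.21 ± 0.04 at 24 h), a subunit of the phosphatase that reverses the action of EIF2AK3, and MBTPS1 (−0.22 ± 0.03 at 10 µM and 24 h), which makes the first cut in ATF6, were the other deepest falls. Without scaling factors the 24 h values were −0.095 for PPP1R15B at 10 µM, where its call ended, −0.15 for MBTPS2 at 3 µM and −0.10 for MBTPS1 at 10 µM.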

How the data were processed

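RNA of 16 CAL51 libraries was sequenced as strand-specific, poly-A selected paired reads, per the labels' protocols. The authors deposited 1 table of whole-number counts per gene for each library. STAR, HTSeq, edgeR and the builds hg19 and GRCh37 are named in the submitters' processing notes. Their versions, the annotation, the strand setting, the treatment of overlapping genes and of duplicates were not given in the sources used here, so reads of overlapping or antisense genes and of near-identical copies may have been assigned in either way. Rows that name no gene held 16.9 to 20.2% of read pairs and were left out.

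The deposited counts were tested with edgeR 4.0.16 (R 4.3.3) in 1 quasi-likelihood fit of 6 group means over all libraries, with TMM scaling and a low-count filter (minimum count 10, minimum total 15). p-values were adjusted by the Benjamini-Hochberg method over 22007 genes, and 9 comparisons were made. The SE is the log2 fold change divided by the square root of the F statistic. CPM were computed from the counts, the library totals and the TMM factors, and the spread between libraries is the SD of log2(CPM + 0.5). The procedure was tested on simulated data, in which changes were planted in a small part of the genes and a gene had the same spread in all groups. The libraries at 10 µM and 6 h varied more than the others, a case that this simulation did not cover. Alternatives were RLE factors, no scaling factors, DESeq2 1.42.0, limma-voom (limma 3.58.1), no low-count filter, a filter of 1 CPM in 5 libraries, only the compared groups, a block for the replicate number, and leaving out 1 library at a time.

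All 32 genes may be named. Of each other pathway list, the 2 called genes with the largest rise and the 2 with the deepest fall against vehicle were named, from those averaging a log2 CPM of 1 or more, besides ATF4, DDIT3 and ERO1L. A gene that this rule gave is not reported here. The 32 genes and all lists were chosen with earlier results of these data known. The planned description of protein ends was not made, since protein sequences were not used here. Gene spans came from GENCODE 29. Same-numbered libraries did not deviate together, so the replicate numbers were not used as pairs. No pair of libraries of 1 group agreed within counting noise.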

Additional observations from a re-analysis of the deposited data

Results flagged for a closer look

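The effect of CC-671 differed between 6 and 24 h for most of the 32 genes, by edgeR's test of the effect at 24 h minus that at 6 h (adjusted p under 0.05), given here in log2. Lower effects at 24 h were found for 46.9% of members at 3 µM and 59.4% at 10 µM, against 23.7 and 26.4% of all genes. Higher effects were found for 25 and 28.1% of members, about the rate of all genes (25.6 and 27.6%). At 3 µM the effect was lower at 24 h for 15 genes, HSPA5 (−0.81), EIF2AK3 (−0.68), SDF2L1 (−0.58), CRELD2 (−0.56), HSP90B1 (−0.53), CALR (−0.48), PDIA4 (−0.47), SEC61B (−0.46), CREB3L2 (−0.30), MANF (−0.29), PDIA6 (−0.25), PDIA3 (−0.25), SEC61A1 (−0.25), P4HB (−0.20) and DERL2 (−0.16). It was higher at 24 h for 8 genes, ERN1 (1.00), SEL1L (0.60), EDEM1 (0.53), EDEM3 (0.47), DERL1 (0.37), EDEM2 (0.24), CANX (0.20) and ATF6 (0.17).

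At 10 µM the effect was lower at 24 h for 19 genes, DERL3 (−2.20), HSPA5 (−1.20), EIF2AK3 (−0.98), SDF2L1 (−0.84), CRELD2 (−0.79), DNAJB9 (−0.72), HSP90B1 (−0.71), CALR (−0.65), PDIA4 (−0.56), SEC61B (−0.48), CREB3L2 (−0.43), SEC61A1 (−0.40), MANF (−0.36), PDIA3 (−0.36), PDIA6 (−0.31), XBP1 (−0.30), P4HB (−0.27), DERL2 (−0.22) and HYOU1 (−0.21). It was higher for 9 genes, ERN1 (1.16), SEL1L (0.67), DERL1 (0.52), ATF6 (0.36), EDEM3 (0.34), EDEM1 (0.34), EDEM2 (0.28), CANX (0.28) and SEC24D (0.21). The calls of DERL3, DNAJB9, HYOU1 and SEC24D at 10 µM ended in a fit of the compared groups alone, and those of DNAJB9 and HYOU1 also without scaling factors, as did that of DERL2 at 3 µM. Both doses were set against the same vehicle libraries, so their values are not independent of each other.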

How the results depend on the processing

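Of 4096 alternative values of single genes among the 32, 3739 kept their direction and their side of the threshold, 149 lost the call, 105 gained one and 103 changed sign, 5 of them with a call in one of the settings and 98 with none. Leaving out 1 library at a time ended 31 of 171 calls and added 9. Of 780 such values of genes outside the 32, 770 kept direction and side of the threshold, 9 lost the call and 1 gained one. Without scaling factors the ERO1L values at 24 h were −0.19 and −0.18. Without them, 13 members were higher and 6 lower at 3 µM and 24 h (against 38.3 and 22.6% of all genes). At 10 µM and 24 h, 16 were higher and 6 lower (against 39.9 and 24.2%). Without scaling factors CANX (0.086) and PDIA3 (0.073) changed sign at 3 µM and 24 h, and PDIA4 (0.00034), DERL2 (0.10) and EDEM3 (0.0035) at 10 µM and 24 h. So did 6 values at 3 µM and 4 at 10 µM with no call in either setting, the median of all genes having shifted by 0.101 and 0.11. In that setting 62.9 and 62.3% of all calls at 24 h were higher, against 48.9 and 49.2%. In the comparison of doses at 24 h the share was 50.2% against 39.3%, and for the change of the 3 and 10 µM effects from 6 to 24 h it was 61.9 and 61.3% against 51.9 and 51.1%.

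With only the compared groups, 7 members were higher and 1 lower at 10 µM than at 3 µM at 6 h (against 7.68 and 8.98% of all genes). At 24 h 16 were higher and 1 lower (against 9.15 and 9.16%). In vehicle 2 were higher and 7 lower at 24 h than at 6 h (against 12.8 and 13.6%). The cause was not tested. Between the doses at 24 h, 1 member was higher with no low-count filter (against 1.7% of all genes) and 1 was lower by DESeq2 (against 4.68%). In vehicle, 1 was higher at 24 h without scaling factors (against 11.7%). With 1 library left out, the members lower at 10 µM than at 3 µM at 6 h numbered 1 to 2 (against 9.37 to 13% of all genes). Those lower in vehicle at 24 h numbered 0 to 3 (against 4.62 to 7.1%). With the replicate number as a block, 18 members were higher and 10 lower at 3 µM and 6 h (against 31 and 31%). Percentages here are shares of all genes in that fit. At 10 µM and 6 h, 20 and 8 were higher and lower (against 33.5 and 33.1%). At 24 h they numbered 7 and 10 at 3 µM (against 29 and 30.4%) and 10 and 8 at 10 µM (against 30.6 and 31.7%). Between the doses they numbered 19 and 2 at 6 h (against 11.3 and 12.4%) and 0 and 0 at 24 h (against 2.21 and 3.56%). In vehicle there were 0 and 4 (against 10.5 and 9.02%). For the change of the 3 µM effect there were 8 and 15 (against 25.3 and 23.4%), and of the 10 µM effect 8 and 19 (against 27.4 and 26.1%). Same-numbered libraries of different groups correlated at −0.269 to 0.271 (36 pairs of libraries, 4 over 0.1), so the replicate numbers gave no pairing. DERL3 and ERN1 had the lowest levels of the members, and the effect of depth was not tested.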
